A study of Mus musculus with 24 samples.

Results

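Genes of the presynaptic terminal were followed through astrocyte ribosome-bound RNA and through the RNA left behind after the purification, in sleeping, waking and sleep-deprived mice. The set held 37 genes for synaptic vesicle proteins, the fusion machinery, the active zone and vesicle retrieval, of 18193 genes measured. A member was read from a probe set that the array annotation pairs with its symbol alone, and from the brightest such probe set over the 24 arrays where there were several. The choice of probe set used no difference between groups, but 18 of the 24 arrays behind it were bound. The members themselves were chosen with earlier results of these data known. All animals were adult heterozygous aldh1l1 - eGFP-L10a mice, in which a ribosomal protein tagged with green fluorescent protein is driven by the promoter of an astrocyte gene, so that there was no group without the transgene. Cerebral cortex was dissected from 6 mice per state. The tagged ribosomes were pulled down (bound fraction), and the supernatant with the other cells' RNA and any astrocyte RNA not captured was kept (unbound fraction).

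Each bound array held RNA of 1 mouse, with 6 arrays for sleep, 6 for waking and 6 for sleep deprivation. The unbound fraction came from the same animals as 2 pools per state, animals 1 to 3 and animals 4 to 6, so that each pool averaged 3 mice. Sleeping mice were killed at about 3 to 5 pm after a bout of sleep longer than 45 min and at least 75% sleep over the previous 6 to 7 h. Waking mice were killed at about 3 to 5 am after more than 1 h awake and at least 70% wake over the same span. Sleep-deprived mice were kept awake for 4 h of the light phase with unfamiliar objects. Waking and sleep therefore also differ in clock time. Sleep deprivation and sleep were both sampled in the light phase, and the clock time of the deprived group is not given in the sources used here.

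A presynaptic terminal stores transmitter in small vesicles, which are loaded by transporters, held near the active zone by scaffold proteins, and primed there for fusion. Fusion is driven by SNARE proteins that zip the vesicle and cell membranes together, and calcium-binding synaptotagmins trigger it when an action potential opens calcium channels. The membrane is then retrieved by endocytosis and the SNARE complexes are pulled apart for reuse. In cortex these proteins are made chiefly by neurons. Astrocytes carry some relatives of the same families for their own membrane traffic, among them Vamp3, a SNARE protein found in many cell types.

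Promoter sequences were available for 30 of the 37 members from RefSeq (GRCm38.p6), as 42 windows from 250 bases before to 50 bases after a transcription start. Syt4, Syt5, Snap25, Vamp2, Vamp3, Syn3 and Rims2 had none. Motifs of factors linked to neuronal genes were searched on both strands as exact letters, with N as any base and no mismatch allowed. The left arm of the RE1 element, TTCAGCACC, to which the repressor of neuronal genes REST binds outside neurons, was found in windows of Syn1 and Unc13a and in 0.371% of all 32851 promoters. The longer RE1 core, with which the left arm can overlap, was in 0.0365% of all promoters and in 0 of the member windows. The cAMP response element TGACGTCA was in a window of Syn1 and in 1.79% of all promoters, and the EGR site GCGTGGGCG in windows of Synj1 and Unc13a and in 0.612%. The CCAAT box CCAAT was found for 9 members and in 37.4% of all promoters, and the TATA box TATAAA for Sv2b and in 13.6%. Such matches describe letters in a window, and binding was not measured here. The windows of Syn1 and Unc13a are shown as examples of members with matches that also appear in state comparisons below. There Syn1 is close to the threshold, and Unc13a passed only in alternative fits. A link between a motif and a state was not tested. Capitals mark, in Syn1 (chrX:20920869-20921168, minus strand), the RE1 left arm from base -232 and the cAMP response element from base -159. In Unc13a (chr8:71671708-71672007, minus strand) they mark the EGR site from base -25 and the RE1 left arm from base 22 after the start, both read from the opposite strand.
Syn1: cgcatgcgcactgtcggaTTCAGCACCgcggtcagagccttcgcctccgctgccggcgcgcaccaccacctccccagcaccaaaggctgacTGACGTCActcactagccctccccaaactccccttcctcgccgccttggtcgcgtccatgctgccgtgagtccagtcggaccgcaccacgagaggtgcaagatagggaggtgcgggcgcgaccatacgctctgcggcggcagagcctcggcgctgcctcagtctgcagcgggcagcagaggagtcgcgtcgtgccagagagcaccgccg
Unc13a: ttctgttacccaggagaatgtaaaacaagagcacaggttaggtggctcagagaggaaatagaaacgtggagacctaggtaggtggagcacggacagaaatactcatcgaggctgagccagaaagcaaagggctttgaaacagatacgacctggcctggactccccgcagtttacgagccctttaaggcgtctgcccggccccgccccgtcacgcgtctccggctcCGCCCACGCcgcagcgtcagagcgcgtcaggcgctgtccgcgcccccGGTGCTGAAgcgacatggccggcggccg

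Array medians lay between 5.51 and 5.88 on the log2 scale. Aldh1l1 was higher in bound than in unbound RNA by 3.72 (SE 0.11, adjusted p = 7.44e-18), with 10.52 to 11.27 on the bound and 6.75 to 7.23 on the unbound arrays, and Rpl10a was higher by 1.17 (SE 0.18, adjusted p = 1.5e-06). All 15 astrocyte markers were higher in the bound fraction (median difference 3.02), and 20 of 23 neuron markers were lower, with 3 that did not pass (median -2.18). Of the other marker lists, 6 of 7 oligodendrocyte markers were lower and 1 higher, 5 of 8 microglia markers were lower, and of 5 endothelial markers 1 was higher and 1 lower. Bound arrays of animals 1 to 3 stood apart from those of animals 4 to 6, the sets in which the unbound RNA was pooled. Within-set values stand beside results that differ between the sets. Exactly tied probe set values occurred in all 48 pairs of arrays of one group and in 0 of 228 pairs of different groups. If the normalization was run group by group, a group and its run cannot be told apart in any comparison of groups below.

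Presynaptic transcripts were lower in the astrocyte ribosome-bound fraction. Of the 37 members, 31 were lower in bound than in unbound RNA, 2 were higher and 4 did not pass the test, with a median log2 difference of -2.11. The contrast used all 24 arrays (18 bound, 6 unbound), an adjusted p under 0.05 being the threshold. Over all genes tested, 27.2% were lower and 42.2% higher (69.4% in all), and these shares are the background for the members. Here and below, log2 differences are given relative to the median difference of all genes (0.16 in this contrast as fitted), while tests and directions rest on the differences as fitted. Because these are bulk fractions of the same cortex, RNA from tagged astrocyte ribosomes and RNA of other cells carried along in the pull-down cannot be told apart in the bound arrays. Nor can the number of cells of a type behind a level and the RNA per cell. For 26 members every bound array was below every unbound array, and for Vamp3 every bound array was above; over all genes the shares without overlap were 10.1% lower and 17.2% higher.

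**Figure D1:**
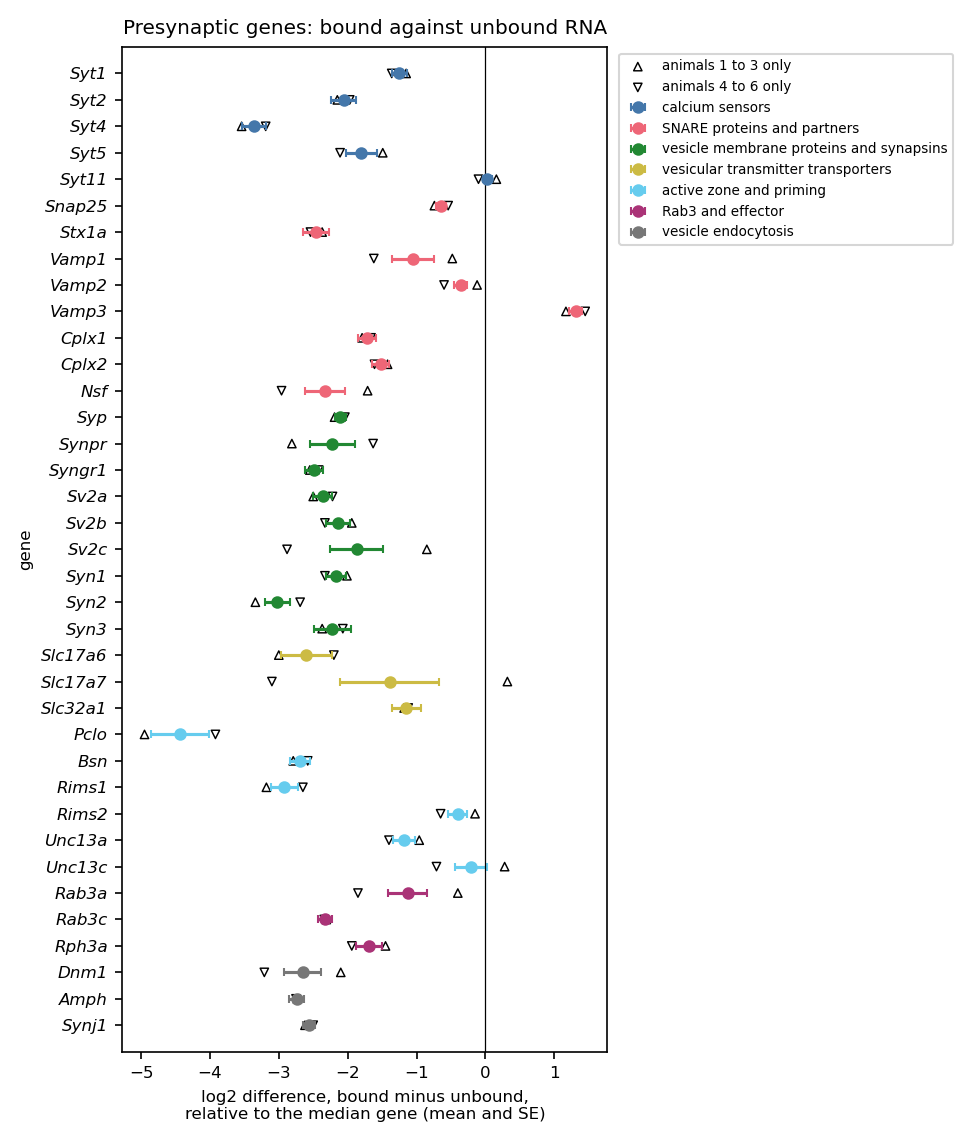
Log2 difference between bound and unbound RNA, relative to the median gene (x axis), for each of the 37 genes (y axis), coloured by role. Filled points with bars are the estimate and SE over 24 arrays, and open triangles the same difference in animals 1 to 3 or animals 4 to 6 alone. Vamp3 lies far to the right at 1.31, Pclo lies farthest left at -4.44, and the triangles of Slc17a7 lie farthest apart, on opposite sides of 0.

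Among the calcium sensors, 4 of 5 were lower. Syt1, the sensor for fast synchronous release in most forebrain neurons, ranged from 10.87 through a median of 11.2 to 11.73 on the bound arrays and from 12.15 through 12.25 to 12.49 on the unbound ones, without overlap (difference -1.25, SE 0.11, adjusted p = 2.88e-08). Syt4, a synaptotagmin whose first C2 domain binds no calcium, had the second largest deficit of the 37, at -3.36 (SE 0.17, adjusted p = 4.34e-13), with 6.62 to 8.3 bound against 10.16 to 10.88 unbound. Syt2, the fast sensor best known from the hindbrain and from some interneurons, fell short by a log2 difference of -2.06 (SE 0.18). Its bound arrays held 4.47 to 5.92 around a median of 5.45, near or under the array medians, where a probe set may be at background. Syt5, a calcium-binding synaptotagmin, differed by -1.80 (SE 0.22). Syt11, a close relative of Syt4, was not lower. Its bound arrays held 11.92 to 12.42 and its unbound arrays 11.71 to 12.1, overlapping, and its difference of 0.03 over the median gene (SE 0.07) was 0.19 as fitted, which passed the test (adjusted p = 0.0277). The call was lost in 8 of 31 alternatives and its direction turned to -0.16 when quantile normalization was repeated over all arrays. Within sets Syt11 came to 0.16 in animals 1 to 3 (SE 0.11, adjusted p = 0.0398). In animals 4 to 6 it came to -0.10 and did not pass (SE 0.09, adjusted p = 0.432).

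The SNARE proteins and their partners split. Snap25, Stx1a and Vamp2 form the core fusion complex of neurons, and they differed in size of deficit. Stx1a held 8.57 to 10.49 bound against 11.07 to 12.06 unbound (difference -2.46, SE 0.19, adjusted p = 4.91e-10), read from a probe set that can also match other transcripts. Snap25 was lower by far less, with 13.33 to 13.78 against 13.9 to 14.19 and no overlap (-0.64, SE 0.07, adjusted p = 7.69e-06), the smallest difference among the members that were lower. Vamp2, at 13.12 to 13.73 against 13.49 to 13.72, did not pass (-0.36, SE 0.10, adjusted p = 0.0742). Its other probe set had a difference of -0.70 and was not tested singly. The levels of Snap25 and Vamp2 lie near the upper end of the arrays, whose maxima were 14.72 to 14.95, and whether the top of the scale compressed these differences was not tested. Within sets Vamp2 was lower in animals 4 to 6, without overlap (-0.60, SE 0.09, adjusted p = 0.00321), and did not pass in animals 1 to 3 (-0.12, SE 0.08, adjusted p = 0.911). Vamp1, a relative of Vamp2, was lower by a log2 difference of -1.05 over both sets (SE 0.30, adjusted p = 0.0124). This came to -1.62 in animals 4 to 6 (SE 0.33, adjusted p = 0.00485) and to -0.48 in animals 1 to 3, where it did not pass (SE 0.23, adjusted p = 0.202).

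Vamp3, the widely expressed relative also known as cellubrevin, was the exception of the SNARE group. It ranged from 11.08 through 11.45 to 11.7 on the bound and from 9.71 through 9.93 to 10.12 on the unbound arrays, and was 2.48-fold higher (difference 1.31, SE 0.09, adjusted p = 5.27e-12). All of its 5 probe sets were higher in the bound fraction. The complexins, small proteins that clasp the assembled SNARE complex, were both lower, Cplx1 by a difference of -1.72 (SE 0.13) and Cplx2 by -1.52 (SE 0.12). Nsf, the ATPase that takes spent SNARE complexes apart, differed by -2.33 (SE 0.29, adjusted p = 8.3e-07) and held 8.24 to 10.21 bound against 11.17 to 11.68 unbound. Its difference was -1.71 in animals 1 to 3 and -2.96 in animals 4 to 6, both past the test.

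All 9 vesicle membrane proteins and synapsins were lower, between -3.02 and -1.87. Syp, synaptophysin, the classical vesicle marker, held 10.92 to 11.45 bound and 12.94 to 13.21 unbound (difference -2.11, SE 0.08, adjusted p = 1.44e-15). Its relatives Synpr and Syngr1 differed by -2.22 (SE 0.32) and -2.49 (SE 0.13), with Synpr at -2.81 in animals 1 to 3 and -1.63 in animals 4 to 6. The vesicle glycoproteins Sv2a, the binding site of the antiepileptic drug levetiracetam, and Sv2b differed by -2.36 (SE 0.14) and -2.14 (SE 0.18). Sv2c, which is most abundant in basal ganglia, was near the dim end of the scale, with 3.33 to 6.36 bound and 5.76 to 7.97 unbound (-1.87, SE 0.38, adjusted p = 4.92e-04), and its groups overlapped. It was lower in animals 4 to 6 (-2.88, SE 0.13) and did not pass in animals 1 to 3 (-0.85, SE 0.49, adjusted p = 0.221). The synapsins, which tether vesicles in the reserve pool, were all lower. Syn2 was lowest at -3.02 (SE 0.18), with Syn1 at -2.17 (SE 0.14) and Syn3 at -2.22 (SE 0.27).

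The vesicular transmitter transporters name the transmitter of a terminal. Slc17a6, VGLUT2, which in cortex marks mainly thalamic input and so is transcribed largely outside it, was lower by a difference of -2.60 (SE 0.37, adjusted p = 5.07e-06), with 4.82 to 7.96 bound against 8.06 to 8.98 unbound. Slc32a1, the transporter of inhibitory terminals, was lower by -1.15 (SE 0.21, adjusted p = 2.86e-04), with -1.18 in animals 1 to 3 and -1.12 in animals 4 to 6, where it did not pass (adjusted p = 0.0874). Slc17a7, VGLUT1, the transporter of cortical excitatory neurons, did not pass (-1.39, SE 0.72, adjusted p = 0.134). Its bound arrays spread from 5.33 to 10.4 around a median of 8.19, while its unbound arrays held 8.74 to 9.53. This spread followed the 2 sets of animals, described below.

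The active zone genes included the largest deficit of all. Pclo, Piccolo, a giant scaffold of the active zone, ranged from 3.0 through 5.52 to 6.68 bound and from 9.3 through 9.78 to 9.86 unbound, a difference of -4.44 (SE 0.42, adjusted p = 1.13e-08). Most of its bound values lie at or under the array medians, where a probe set may be at background, so the size of this difference is not read as an exact fold. Its partner scaffold Bsn, Bassoon, differed by -2.69 (SE 0.15), and Rims1, which recruits calcium channels and vesicles to the release site, by -2.92 (SE 0.20, adjusted p = 8.93e-11). Unc13a, Munc13-1, which primes vesicles, was lower by -1.18 (SE 0.16, adjusted p = 7.61e-06), with 6.38 to 8.08 against 8.01 to 8.47. Rims2 (-0.40, SE 0.14, adjusted p = 0.133), whose probe set can match other transcripts, and Unc13c, a Munc13 best known from cerebellum (-0.21, SE 0.23, adjusted p = 0.85), did not pass. Their other probe sets, some of them dim, had more negative differences. These were -0.90, -1.02, -1.81 and -0.75 for Rims2 and -0.82 and -1.09 for Unc13c, and were not tested singly. In animals 1 to 3 and animals 4 to 6, Rims2 came to -0.15 and -0.65 (adjusted p = 0.959 and 0.0166) and Unc13c to 0.28 and -0.71 (adjusted p = 0.0749 and 0.0543).

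The small GTPases Rab3a and Rab3c, which ride on vesicles, differed by -1.13 (SE 0.28, adjusted p = 0.00457) and -2.33 (SE 0.10, adjusted p = 3.93e-14), and their effector rabphilin, Rph3a, by -1.69 (SE 0.19). Rab3a overlapped between fractions, with 9.66 to 11.42 bound and 11.34 to 11.94 unbound, and Rab3c did not, with 8.79 to 9.67 against 11.2 to 11.58. The difference of Rab3a was -0.40 in animals 1 to 3 (SE 0.10, adjusted p = 0.0336) and -1.85 in animals 4 to 6 (SE 0.14, adjusted p = 1e-05), without overlap in the latter, while that of Rab3c was -2.31 and -2.34. The 3 genes of vesicle retrieval had differences of similar size. Dnm1, the dynamin that cuts vesicles from the membrane, Amph, amphiphysin, which curves it, and Synj1, the lipid phosphatase that helps strip the coat, differed by -2.65 (SE 0.27), -2.74 (SE 0.11) and -2.56 (SE 0.09), each without overlap between fractions. Within sets Dnm1 differed by -2.10 and -3.21.

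Further genes of the same pathways, from lists outside the 37, were also mostly lower. Among 46 other genes of the release machinery, 35 were lower and 8 higher (median -1.44). The calcium channel subunits Cacna1b (-3.29, SE 0.28) and Cacna1e (-3.21, SE 0.28), Syt10 (-3.23, SE 0.24) and Napb, the neuronal partner of Nsf (-3.19, SE 0.11), had the largest negative differences. Vamp8 (3.32, SE 0.15), Stx2 (1.59, SE 0.20), Nrxn2 (1.38, SE 0.43) and Snap23 (1.37, SE 0.21) had the largest positive ones. Vamp8, Stx2 and Snap23 are SNARE proteins of many non-neuronal cells. Of 29 other vesicle and endocytosis genes, 20 were lower and 6 higher (median -1.15). Dnm3 (-3.63, SE 0.24), Snap91 (-3.41, SE 0.20), Sh3gl2 (-3.38, SE 0.16) and Dnajc6 (-2.65, SE 0.20) were at one end. Syngr2 (1.93, SE 0.22), Itsn1 (1.82, SE 0.17), Dnm2 (1.76, SE 0.17) and Sh3gl1 (0.98, SE 0.34) were at the other. Relatives of one family differed in sign in several cases. Among the dynamins Dnm1 and Dnm3 were lower and Dnm2 higher, and among the synaptogyrins Syngr1 and Syngr3 (-1.82) were lower and Syngr2 higher. Snap25 and Snap47 (-1.13) were lower, and Snap23 and Snap29 (0.58) were higher. Stx1a was lower, Stx2 and Stx4a (0.59) were higher, and Stx3 (-0.37) did not pass. Vamp1 and Vamp7 (-0.95) were lower, Vamp3, Vamp4 (0.33) and Vamp8 were higher, and Vamp2 (-0.36) did not pass. Within animals 1 to 3, 33 release genes were lower and 9 higher, and within animals 4 to 6, 33 and 7. For the vesicle and endocytosis genes the counts were 18 and 6, then 20 and 4. Nrxn2 was 2.34 in the first set and 0.43 in the second, Sh3gl1 1.86 and 0.10 (adjusted p = 0.241), and Snap29 0.95 and 0.20 (adjusted p = 0.149).

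Other probe sets of the same genes mostly gave the same direction. Of the 25 members with 2 or more probe sets at or above the overall median level of 5.8, 22 had one sign across them. The exceptions were Slc32a1 (-2.23 to 0.63), Syngr1 (-2.49 to 0.89) and Syt11 (-0.35 to 0.03). Within animals 1 to 3, 29 members were lower and 3 higher (Syt11, Vamp3 and Slc17a7; median -1.94; over all genes 28.8% lower and 39.3% higher). Within animals 4 to 6, 33 were lower and 1 higher (Vamp3; median -2.11; over all genes 21.3% lower and 36.6% higher). With bound arrays averaged per pool and the pool as a replicate block, 31 were lower and 1, Vamp3, was higher (over all genes 23.1% lower and 35.6% higher).

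The bound arrays of animals 4 to 6 and animals 1 to 3 differed in many members. These comparisons of the sets were added once the values were known. The bound difference between sets was lower in animals 4 to 6 for 13 of 37 members and higher for 10, against 21% and 22.9% of all genes (43.8% in all). In the 23 members that passed, the sign was the same in sleep, waking and sleep deprivation. The unbound pools of the same animals showed no such difference, with 0 of 37 members and 0 of 18193 genes past the test (limma; 1 member and 5.72% of genes at an unadjusted p under 0.05). With 3 pools against 3, power is limited, so the difference of the set differences was also tested. It passed for 8 members, 7 lower and 1 higher, against 9.23% and 11.9% of all genes (21.2% in all).

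Slc17a7 differed most between the sets. In sleep its bound arrays held 10.4, 10.34 and 9.7 in animals 1 to 3 and 6.2, 7.34 and 7.15 in animals 4 to 6. In waking they held 9.02, 9.5 and 9.12 against 5.9, 5.76 and 7.41, and after deprivation 9.03, 9.23 and 8.97 against 5.33, 5.61 and 5.93. Every bound array of animals 1 to 3 was thus above every one of animals 4 to 6 (difference -3.19, SE 0.21, adjusted p = 3.09e-09). The unbound pools of the same 2 sets held 8.96 and 9.18 in sleep, 8.74 and 8.92 in waking, and 9.37 and 9.53 after deprivation, so there animals 4 to 6 were slightly above. The set difference in bound exceeded that in unbound by -3.43 (SE 0.40, adjusted p = 9.09e-06). Accordingly Slc17a7 was higher in bound than in unbound RNA in animals 1 to 3 (0.32, SE 0.17, adjusted p = 0.038) and lower in animals 4 to 6 (-3.10, SE 0.37, adjusted p = 1.61e-04). In animals 1 to 3 the fractions overlapped. There the bound arrays lay above the pool in sleep and waking and below it after deprivation. The array has a single probe set for Slc17a7 here.

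**Figure D2:**
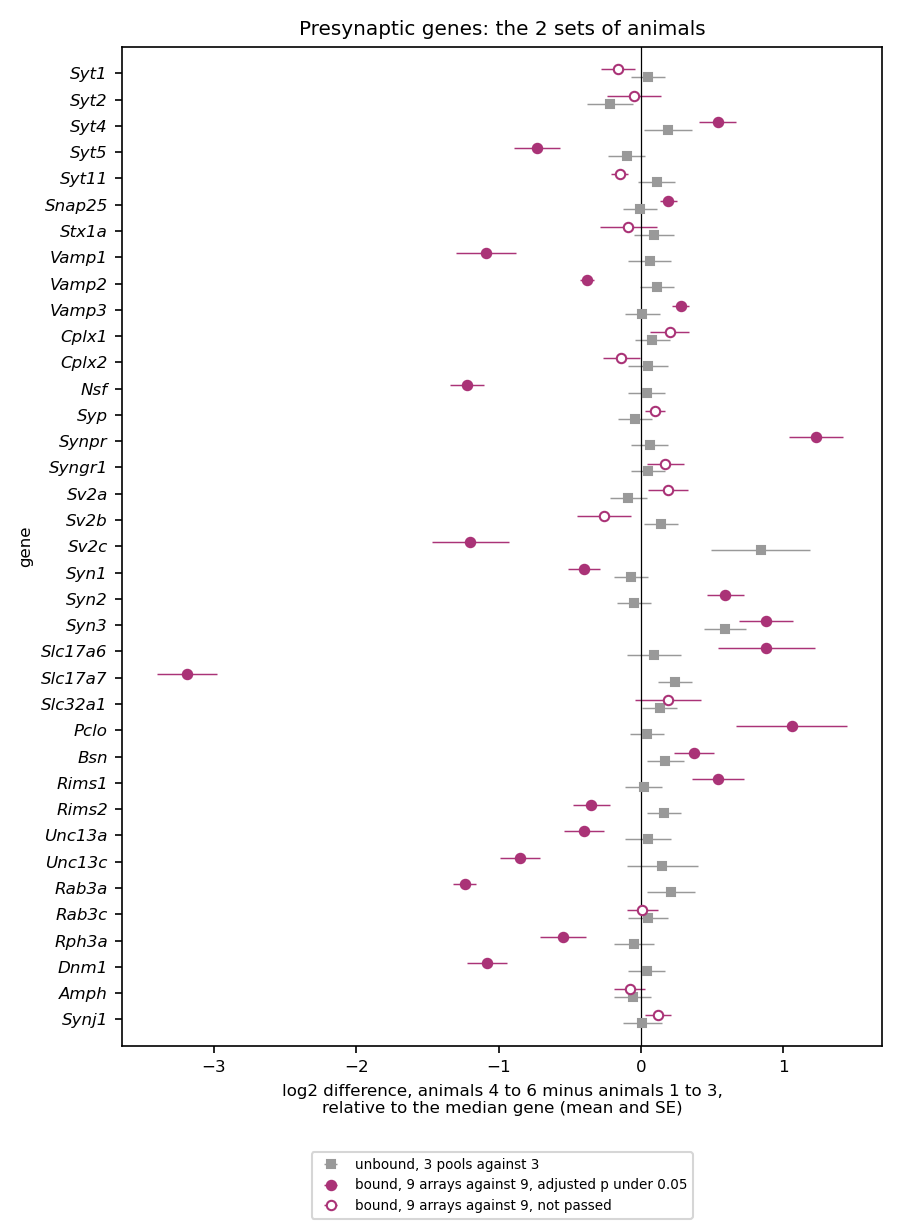
Log2 difference between animals 4 to 6 and animals 1 to 3, relative to the median gene (x axis), for each of the 37 genes (y axis), with SE. Circles are bound arrays (9 against 9, filled where the adjusted p was under 0.05) and grey squares unbound pools (3 against 3). Slc17a7 stands at -3.19 in bound and close to 0 in unbound, and Synpr at 1.23 is the highest circle.

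Rab3a, Nsf, Dnm1 and Vamp2 also separated the sets without overlap. Rab3a held 11.01 to 11.42 in animals 1 to 3 and 9.66 to 10.31 in animals 4 to 6 (-1.24, SE 0.08, adjusted p = 1.22e-09). Nsf differed by -1.22 (SE 0.12), Dnm1 by -1.08 (SE 0.14) and Vamp2 by -0.38 (SE 0.05). Members without overlap numbered 5 lower, Slc17a7 included, and 0 higher, against 6.27% and 6.1% of all genes. Against the unbound sets the differences were -1.46 (SE 0.16) for Rab3a, -1.26 (SE 0.23) for Nsf, -1.12 (SE 0.26) for Dnm1 and -0.49 (SE 0.10) for Vamp2. Sv2c (-2.04, SE 0.55) and Unc13c (-1.0, SE 0.30) were the other members lower on that test. Synpr was the member that was higher, by 1.17 (SE 0.37, adjusted p = 0.0215). Its bound arrays held 6.48 to 8.25 in animals 1 to 3 and 8.21 to 8.97 in animals 4 to 6.

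The other bound set differences past the test were smaller or less even. Sv2c (-1.20), Vamp1 (-1.09), Unc13c (-0.85), Syt5 (-0.73), Rph3a (-0.55), Syn1 (-0.40), Unc13a (-0.40) and Rims2 (-0.35) were lower in animals 4 to 6. Besides Synpr, Pclo (1.06), Slc17a6 (0.88), Syn3 (0.88), Syn2 (0.59), Syt4 (0.54), Rims1 (0.54), Bsn (0.37), Vamp3 (0.28) and Snap25 (0.19) were higher. By role, the members higher and lower were 3 and 3 of 6 active zone genes, 3 and 2 of 9 membrane proteins and synapsins, 2 and 3 of 8 SNARE proteins and partners, and 1 and 1 of both the 5 calcium sensors and the 3 transporters. Of the 3 genes of Rab3 and its effector 0 were higher and 2 lower, and of the 3 retrieval genes 0 were higher and 1 lower. The mean level of the Rab3 genes and Rph3a did not overlap between the sets, at 10.03 to 10.63 in animals 1 to 3 and 9.53 to 9.78 in animals 4 to 6. This mean was uneven across its genes, with -1.24 for Rab3a, -0.55 for Rph3a and 0.01 for Rab3c. The other probe set of Rab3a gave -0.0. The neuron markers were likewise mixed, with 8 higher and 5 lower of 23, and their mean level per array overlapped between sets (8.9 to 9.35 in animals 1 to 3, 8.94 to 9.25 in animals 4 to 6). Astrocyte marker means overlapped too (12.45 to 12.68 against 12.49 to 12.64).

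Probe sets of one gene often differed in the set comparison. Of the 25 members with 2 or more bright probe sets, 10 had one sign of the bound set difference across them and 15 had both, and in 9 members the probe sets spanned more than 1 log2 unit. Dnm1 gave -1.08 and -1.01, Vamp2 -0.38 and -0.68, and Nsf -1.22 and -0.74, so these 3 genes moved alike at their bright probe sets. Rab3a gave -1.24 at the probe set used and a difference of -0.00 at the other, which can match further transcripts. Unc13c gave -0.85 and 0.12. Syn2 spanned -1.56 to 0.59, Syngr1 -1.96 to 0.17 and Bsn -1.46 to 0.52. What distinguishes the probe sets was not tested.

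State comparisons of the bound fraction moved few members. For waking against sleep 0 of 37 members passed, where 11.2% of all genes did, and for sleep deprivation against sleep 0 of 37, where 14.3% did, 12.3% higher and 2.02% lower (limma; 2 members each at an unadjusted p under 0.05, where 23.1% and 26.4% of all genes did). Over all genes the waking calls were 9.07% higher and 2.14% lower, and with quantile normalization repeated 4.07% higher and 3.5% lower. With dim genes left out before the fit, 0.974% of the 11604 genes tested were higher and 0.25% lower in waking, so these shares depend on the scaling and the filter. The bound groups overlapped in all 37 members in waking against sleep, where 6.01% of all genes were higher and 1.24% lower without overlap, and in deprivation against sleep, where 7.44% were higher and 1.02% lower. The median difference of the members was -0.08 for waking and -0.09 for sleep deprivation relative to all genes. The mean level of the 37 members on an array overlapped between states: it ran from 8.84 to 9.34 in sleep, 8.91 to 9.33 in waking and 8.91 to 9.34 after deprivation. Neuron marker means ran from 8.9 to 9.26, 8.91 to 9.35 and 8.96 to 9.35.

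**Figure D3:**
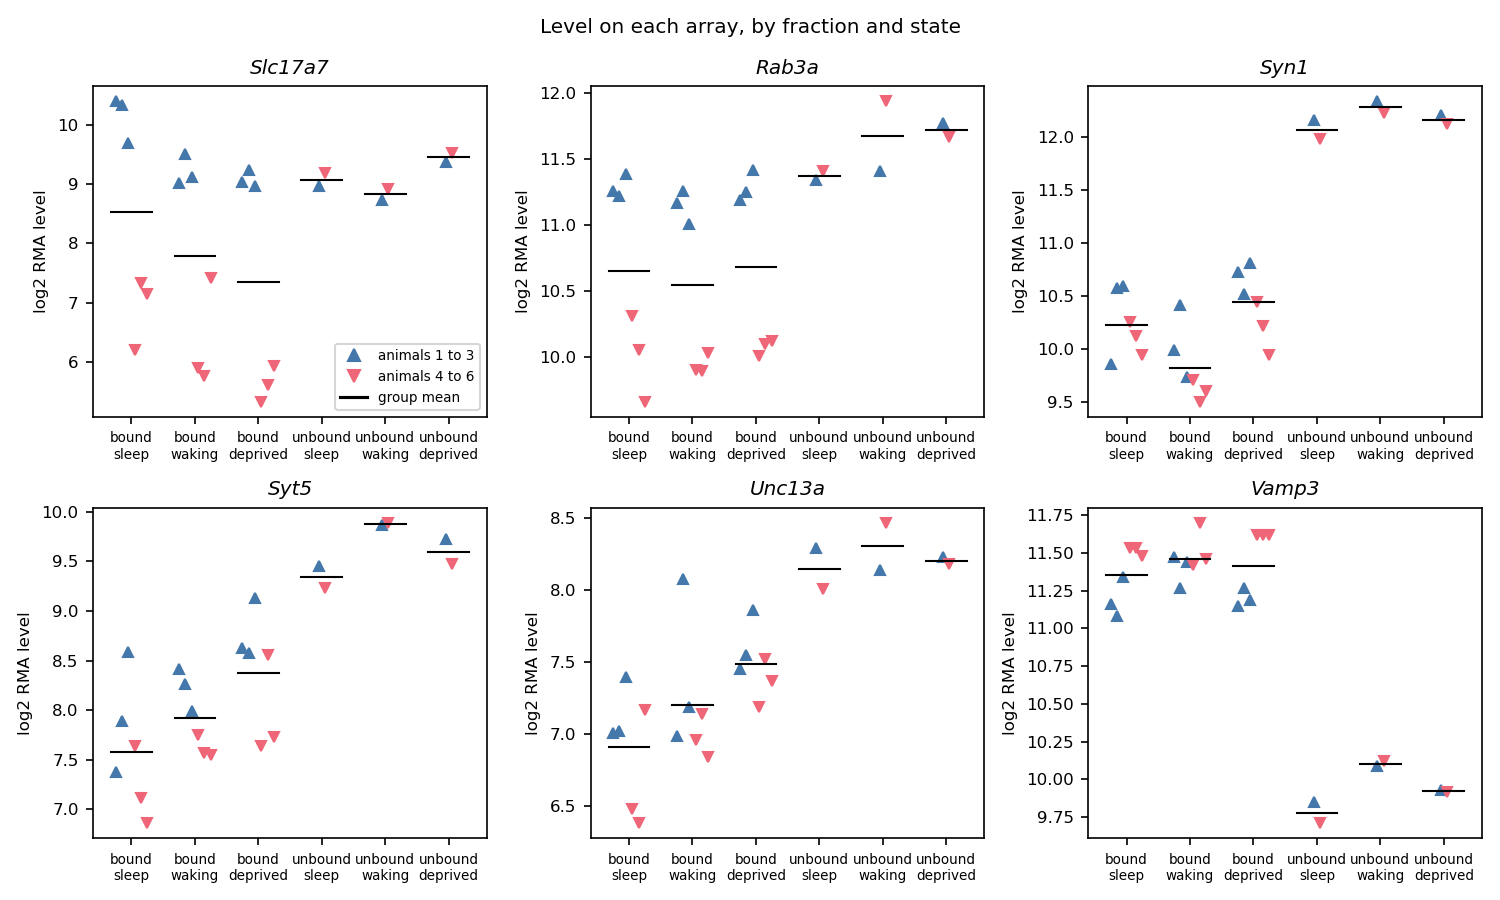
Log2 RMA level on each array (y axis) by fraction and state (x axis) for 6 genes. Upward triangles are animals 1 to 3, downward triangles animals 4 to 6, and lines group means. Slc17a7 and Rab3a split by set in bound RNA, Syn1 is lowest in bound waking RNA, and Vamp3 is higher in every bound than in every unbound array.

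Syn1, the synapsin that tethers vesicles to actin and to one another, was the 1 member past the test between states in the fit without a block. Its bound arrays ran from 9.86 through a median of 10.18 to 10.59 in sleep, from 9.5 through 9.72 to 10.41 in waking, and from 9.94 through 10.48 to 10.81 after deprivation. Waking arrays were lowest, with overlap between the groups. Sleep deprivation exceeded waking by 0.60 (SE 0.18, adjusted p = 0.0472), where 4.17% of all genes were higher and 2.67% lower, and it was the 1 member at an unadjusted p under 0.05, where 18.7% of all genes were. The replicate number as a block gave the same difference with an adjusted p of 0.012, and the animal set as a block 0.00797. The difference was 0.62 in animals 1 to 3 (adjusted p = 0.177) and 0.56 in animals 4 to 6 (adjusted p = 0.109), each from 3 arrays per state. The call was lost in 17 of 27 alternatives, 13 of them the omission of 1 array, and is therefore close to the threshold. Against sleep, Syn1 in waking differed by -0.49 (SE 0.18, adjusted p = 0.195). The unbound pools of Syn1 held 12.16 and 11.98 in sleep, 12.34 and 12.23 in waking, and 12.21 and 12.12 after deprivation, and did not show a lower waking level.

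Blocking on the replicate number or the animal set, which removes the split between sets, brought 3 more members past the test for sleep deprivation against sleep, 2 higher and 1 lower (over all genes 17.7% and 3.59% with the replicate block). Slc17a7 was lower after deprivation by -1.28, with an adjusted p of 0.508 without a block, 0.00169 with the replicate block and 0.00395 with the set block. In both sets the 3 deprived arrays given above were below the 3 sleep arrays. The difference was -1.17 in animals 1 to 3 (adjusted p = 0.019) and -1.40 in animals 4 to 6 (adjusted p = 0.135). Waking lay below sleep by -0.83, with an adjusted p of 0.742 without a block, 0.0265 with the replicate block and 0.0601 with the set block. In the unbound pools Slc17a7 after deprivation was 0.20 above sleep. The test of the deprivation effect in bound minus unbound gave -1.49 with an adjusted p of 0.783, and 0.0558 with the set as a block in each fraction, so that a difference between fractions was not established.

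Syt5 and Unc13a were higher after deprivation in the blocked fits. Syt5 ran from 6.86 through 7.51 to 8.59 in sleep, 7.55 through 7.87 to 8.41 in waking and 7.64 through 8.57 to 9.13 after deprivation. It exceeded sleep by 0.69 (SE 0.29, adjusted p = 0.0737), with adjusted p of 0.0121 under the replicate block and 0.00811 under the set block. Unc13a ran from 6.38 through 7.01 to 7.4, from 6.84 through 7.07 to 8.08, and from 7.19 through 7.49 to 7.86. It exceeded sleep by 0.47 (SE 0.21, adjusted p = 0.0687), with 0.0291 and 0.0217 under the blocks. The groups overlapped for both genes. Within sets neither passed, with 0.73 and 0.64 for Syt5 and 0.38 and 0.56 for Unc13a in animals 1 to 3 and 4 to 6. Sv2c, a dim probe set, was higher than sleep in animals 4 to 6 alone, by 0.73 in waking (adjusted p = 0.0341) and 0.94 after deprivation (adjusted p = 0.013), and by 0.59 and 0.07 in animals 1 to 3.

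The remaining members did not pass in any of the 3 bound state comparisons of the unblocked fit. The largest of their differences were those of Slc17a6, at -1.10 in waking (95% interval -2.12 to -0.08) and -0.62 after deprivation, and of Pclo, at -0.70 (-1.89 to 0.48) and -0.54 (-1.72 to 0.64). These 2 genes are near the dim end on the bound arrays. These intervals are set around the difference relative to the median gene, while the test rests on the difference as fitted. That of Slc17a6 in waking leaves out 0, although its fitted difference did not reach an unadjusted p under 0.05. With 6 arrays a state the intervals are wide, and a missed threshold does not show that levels were equal.

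**Figure D4:**
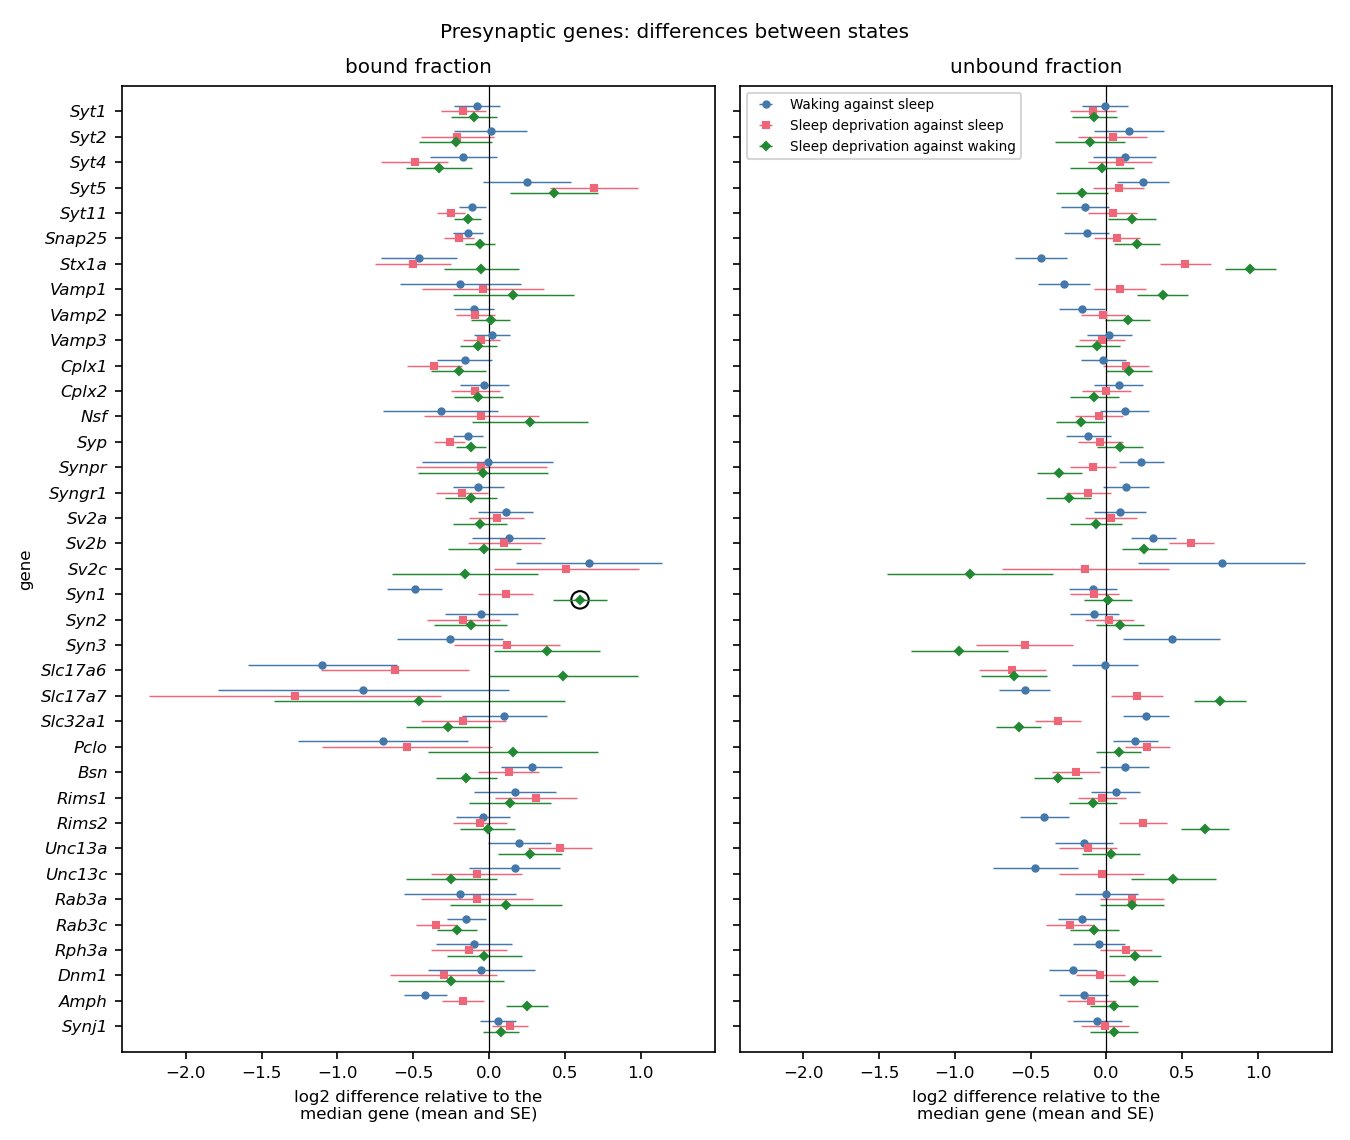
Log2 difference between states, relative to the median gene (x axis, with SE), for each of the 37 genes (y axis) in the bound (left) and unbound (right) fraction. The circled point, Syn1 for sleep deprivation against waking in the bound fraction at 0.60, is the single difference past the test. Most points lie within 0.5 of 0, and Slc17a7 has the widest bars in the bound fraction.

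In the unbound fraction, where most members were higher, 0 of 37 members passed in any state comparison with the brightest probe set (limma, 2 pools per state). The shares over all genes were 6.32% for waking against sleep (5.71% higher and 0.605% lower), 1.87% for deprivation against sleep (1.42% higher and 0.451% lower) and 0.759% for deprivation against waking. At an unadjusted p under 0.05 there were 8, 4 and 9 members, against 32.4%, 25.3% and 21% of all genes. For waking against sleep the median as fitted was 0.29 for the members and 0.30 for all genes, so members and all genes shifted alike. With the mean of a gene's probe sets in place of the brightest, Pclo, Slc32a1, Sv2b, Syngr1 and Vamp3 were higher in waking than in sleep. The absence of calls in that comparison thus depends on how probe sets are summarized. With arrays centred on their median, or quantile normalization repeated, 0 of 18193 genes passed in it. Without such a correction 29 of the 37 members lay higher in both waking than in both sleep pools, against 55.5% of all genes, and 2 lay lower, against 9.71%.

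Some members differed between pools by more than the rest. Stx1a held 11.2 and 11.37 in sleep, 11.25 and 11.07 in waking, and 11.92 and 12.06 after deprivation, the deprived pools being highest (0.95 over waking, SE 0.17, adjusted p = 0.0722). Sv2b, at 10.97 and 10.97, then 11.52 and 11.64, then 11.64 and 11.77, was lowest in sleep (0.56 after deprivation, SE 0.15, adjusted p = 0.0672). Slc32a1 was highest in waking, with 10.22 and 10.38 against 9.7 and 9.77 in sleep and 9.58 and 9.6 after deprivation (deprivation against waking -0.58, SE 0.15, adjusted p = 0.0832). Slc17a7 went the other way in that comparison, at 0.75 (SE 0.17, adjusted p = 0.12), and Slc17a6 and Syn3 at -0.61 (SE 0.22) and -0.97 (SE 0.32). None of these passed. For the effect of waking in bound minus unbound, 0 of 37 members passed, against 5.6% of all genes, 1.89% higher and 3.71% lower (limma; 0 members at an unadjusted p under 0.05). For the effect of sleep deprivation 0 passed, against 4.89%, 2.91% higher and 1.98% lower, with Stx1a alone at an unadjusted p under 0.05 (-1.03, SE 0.46, adjusted p = 0.215).

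Some related genes outside the 37 passed between states, at shares near or under those of all genes, so that nothing particular to these lists is read from them. The calls named here come from the unblocked fit of the brightest probe sets, and whether they hold in the alternative fits is not given. Of the 46 other release genes, 8.7% passed in bound waking against sleep, where 11.2% of all genes did, 10.9% in deprivation against sleep, where 14.3% did, and 6.52% in deprivation against waking, where 6.84% did. In unbound waking against sleep 6.52% passed, where 6.32% of all genes did, and 6.52% for the waking effect in bound minus unbound, where 5.6% did. Of the 46 other release genes, Rims3 (0.40), Rims4 (0.76) and Rab27b (0.86) were higher and Ppfia3 (-1.28) lower in bound waking against sleep. After deprivation against sleep, Rab27b (1.07), Rims4 (0.86), Ppfia4 (0.63) and Napb (0.33) were higher and Syt9 (-1.46) lower. Against waking, Ppfia3 (1.10) and Ppfia4 (0.93) were higher after deprivation and Syt9 (-1.21) lower. Ppfia3 and Ppfia4 are liprins, adaptor proteins of the active zone, and Ppfia3 also differed in the waking effect between fractions (-1.16, SE 0.22, adjusted p = 7.39e-04). Doc2a (-0.69) and Cplx3 (-0.92) passed that test too. For the sleep deprivation effect Cplx3 (-1.18) passed, 2.17% of the release genes against 4.89% of all genes. In the unbound pools Cplx3 (0.65), Rimbp2 (0.56) and Nrxn2 (0.67) were higher in waking than in sleep. Of the 29 other vesicle and endocytosis genes, 3.45% passed in bound waking against sleep, where 11.2% of all genes did. In bound deprivation 0% passed against sleep and 0% against waking, where 14.3% and 6.84% of all genes did. In unbound waking 3.45% passed, against 6.32%, and for the waking effect between fractions 6.9%, against 5.6%. Atp6v1b2, a proton pump subunit, was lower in bound waking (-0.38), and Synj2 was higher in unbound waking (0.64). Eps15 (-0.38) and Atp6v1b2 (-0.34) differed in the waking effect between fractions.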

How the data were processed

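RNA from 24 samples was hybridized to Affymetrix mouse expression arrays. The authors deposited log2 values per probe set computed with RMA, per the submitters' processing notes; the RMA version, and which arrays were normalized together, are not given in the sources used here. The table held 45101 probe sets, of which 64 were controls, 34945 carried 1 gene symbol, 932 several and 9160 none. Each of 18193 genes was represented by its brightest single-symbol probe set. Members had 98 probe sets, and 8 members had a single one. Fold changes are powers of 2 of the log2 differences.

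Linear models were fitted over all genes with limma 3.58.1 in R 4.3.3 (lmFit and eBayes), separately for the fraction contrast (24 arrays), the bound states (18), the unbound states (6) and the difference of effects between fractions (24), with Benjamini-Hochberg adjustment over all genes. The p-values measure the spread between these arrays, which for the unbound fraction is the spread between pools. The fits were tested on simulated data with independent noise in each gene and array. That simulation had no background split between animal sets and no normalization by group, so it does not show how the fits behave under these. Tables and plots used Python 3.11.15, pandas 2.3.3, numpy 2.4.6, scipy 1.17.1 and matplotlib 3.10.9. The number of arrays limits the precision.

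The members and gene lists were chosen with earlier results of these data known. All 37 members could be named. From other lists the 4 largest positive and negative fraction differences were named, and between states every gene past the test where a list had 8 or fewer. Alternatives were the mean of a gene's probe sets, a filter on dim genes, repeated quantile normalization, centring, a spread from all arrays, blocks, each set of animals alone and each array left out. The comparisons of animal sets, and the set as a block in each fraction, were chosen after seeing the data.

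Replicate numbers were checked for pairing. In the bound fraction the residuals of 18 same-numbered pairs from different states correlated at 0.268 to 0.53, those of 36 differently numbered pairs of the same set at 0.246 to 0.532, and those of 54 pairs from different sets at -0.504 to -0.273. With the set removed, same-numbered pairs correlated at -0.109 to 0.181. The numbers thus share a set, and the replicate block removes it. In the unbound fraction 6 same-numbered pairs of pools correlated at 0.001 to 0.029.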

Additional observations from a re-analysis of the deposited data

Results flagged for a closer look

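Single bound arrays lay far from the other 5 of their group in 7 of 111 groups of 6 arrays examined, where chance gives about 1 in 20. The first sleep-deprived animal held 6.19 for Sv2c, above the others at 4.4 to 4.69. The third waking animal held 3.0 for Pclo, below 5.12 to 6.12. The first waking animal held 8.73 for Bsn, below 9.21 to 9.45. The second waking animal was high for Unc13a, at 8.08 above 6.84 to 7.19, and for Rph3a, at 10.66 above 9.64 to 10.01. Rab3c was high in the fifth sleeping animal, at 9.67 above 9.16 to 9.32, and in the third sleep-deprived animal, at 9.58 above 8.79 to 9.05.

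The difference between animals 4 to 6 and animals 1 to 3 was not the same in bound and unbound RNA for 8 members, by the test of that difference in limma. It was lower in the bound fraction by -3.43 for Slc17a7, -2.04 for Sv2c, -1.46 for Rab3a, -1.26 for Nsf, -1.12 for Dnm1, -1.0 for Unc13c and -0.49 for Vamp2, and higher by 1.17 for Synpr. The labels give no account of how the sets differ other than the pooling of the unbound RNA. What produced the difference was not tested.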

How the results depend on the processing

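For bound against unbound RNA, 1010 of 1021 values of the called members kept their direction and side of the threshold, and 29 of 33 called members kept both in every alternative run. Syt11 turned to -0.16 with quantile normalization repeated. Members higher numbered 1 in place of 2 with the mean of probe sets, repeated quantile normalization, centring, the replicate block, and animals 4 to 6 alone. Leaving out each array gave 1 to 2 higher and 31 to 32 lower. In bound waking against sleep, 1 member was higher in animals 4 to 6, and 1 was lower with the replicate block and in animals 1 to 3. In sleep deprivation against sleep, 2 were higher with the replicate block, the set block and the spread from all 24 arrays, and 1 in animals 4 to 6. In that comparison 1 was lower with both blocks and in animals 1 to 3, and leaving out each array gave 0 to 2 higher. In sleep deprivation against waking, 0 were higher with dim genes left out, with repeated quantile normalization, and in either set alone, and 0 to 1 with each array left out. In unbound waking against sleep, the mean of probe sets gave 5 higher (Pclo, Slc32a1, Sv2b, Syngr1 and Vamp3). The replicate block changed no other call. Between the bound sets the mean of probe sets gave 6 higher and turned Syn2 to -0.24, Syn3 to -0.23, Bsn to -0.18 and Rims2 to 0.01, and leaving out each array gave 7 to 9 higher and 11 to 13 lower. For the set difference in bound minus unbound, 3 were higher with dim genes left out, and 2 with the mean of probe sets or centring. Leaving out each array gave 0 to 2 higher and 5 to 8 lower there. Dnm1, Rab3a, Slc17a7 and Vamp2 kept their calls in all alternatives of that test, while Synpr lost its call in 6 of 28, Unc13c in 5 of 28, Sv2c in 2 of 27 and Nsf in 1 of 28. The causes were not tested. With 2 pools per state, small unbound differences could not be resolved, and dim members such as Sv2c and Pclo were read near the floor of the bound arrays.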
